A study of Sus scrofa with 226 samples.

Results

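The neurons described here were chosen by a measured value, a score named for a slow sinusoidal current (Sinusscore_new): those above the median of their own animal and day in culture are set against those at or below it. At 1 day 59 neurons lay above and 65 at or below, at 2 days 36 and 40, and at 3 days 11 and 13, together 46.9% and 52.2% of all cells. The remaining 2, both from animal 1 at 2 days, had equal scores and could be placed in no arm. All were patch-clamped and then sequenced one cell at a time (Patch-seq, Smart-Seq2 libraries) from cultures of dorsal root ganglia, which hold the cell bodies of the body's sensory nerves. They came from 10 wild-type pigs aged 11, 12, 14, 15, 17, 18 or 20 weeks. No animal was treated and every animal contributed cells to both arms, so the groups share genotype, tissue and culture and differ in the score. The cells were those an experimenter chose to patch, which limits how far they stand for the ganglion. The depth of a cell lay between 109726 and 5506278 counts (median 740524), so levels are given for sums over the cells of an animal.

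Sensory neurons turn a depolarising current into action potentials. Fast pulses drive most fibre types, whereas a slowly rising and falling current gives fast sodium channels time to inactivate, and it is used in animals and people as a stimulus that favours unmyelinated C-fibres. How a neuron answers depends on how much voltage a current produces (input resistance and cell size), on the voltage at which spikes start, and on the sodium, potassium, HCN and calcium channels open below that voltage. The rheobase is the smallest long step of current that evokes a spike. The sodium channels Nav1.7 (SCN9A), Nav1.8 (SCN10A) and Nav1.9 (SCN11A) carry much of the inward current of nociceptors, while KCNQ and A-type potassium channels oppose it.

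The deposited table of recordings does not define the score, and several columns go against reading a high value as a stronger response. The score ran from 0.05 to 1.4 with a median of 0.333. By construction it was higher in the first arm (0.16 to 1.4, median 0.492) than in the second (0.05 to 0.5, median 0.2). The medians of the 22 animal-and-day strata ran from 0.13 to 0.593. Inside a stratum the lowest cell above the median and the highest cell at or below it were 0.00476 to 0.186 apart (median 0.0437), and 13 cells lay exactly at a median, so the arms are ranges of a continuous value. An earlier version of the score (Sinusscore_old) moved the other way: its mean per animal was -10.5 ± 4.45 in the higher-score arm and -5.32 ± 2.76 in the lower-score arm (SD, n = 10), and it was lower in the higher-score arm of every animal. Within strata the rank correlation of both versions averaged -0.415 over 9 animals and was negative in 8. Of the neurons at the lowest old score, -20, 18 were in the higher-score arm and 5 in the lower-score arm. Arms made in the same way from the old score put 63.2% of the cells on the opposite side. These values are a description, since both columns belong to the measure that made the arms. The arms are therefore called higher-score and lower-score neurons, not responders and non-responders.

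**Figure D1:**
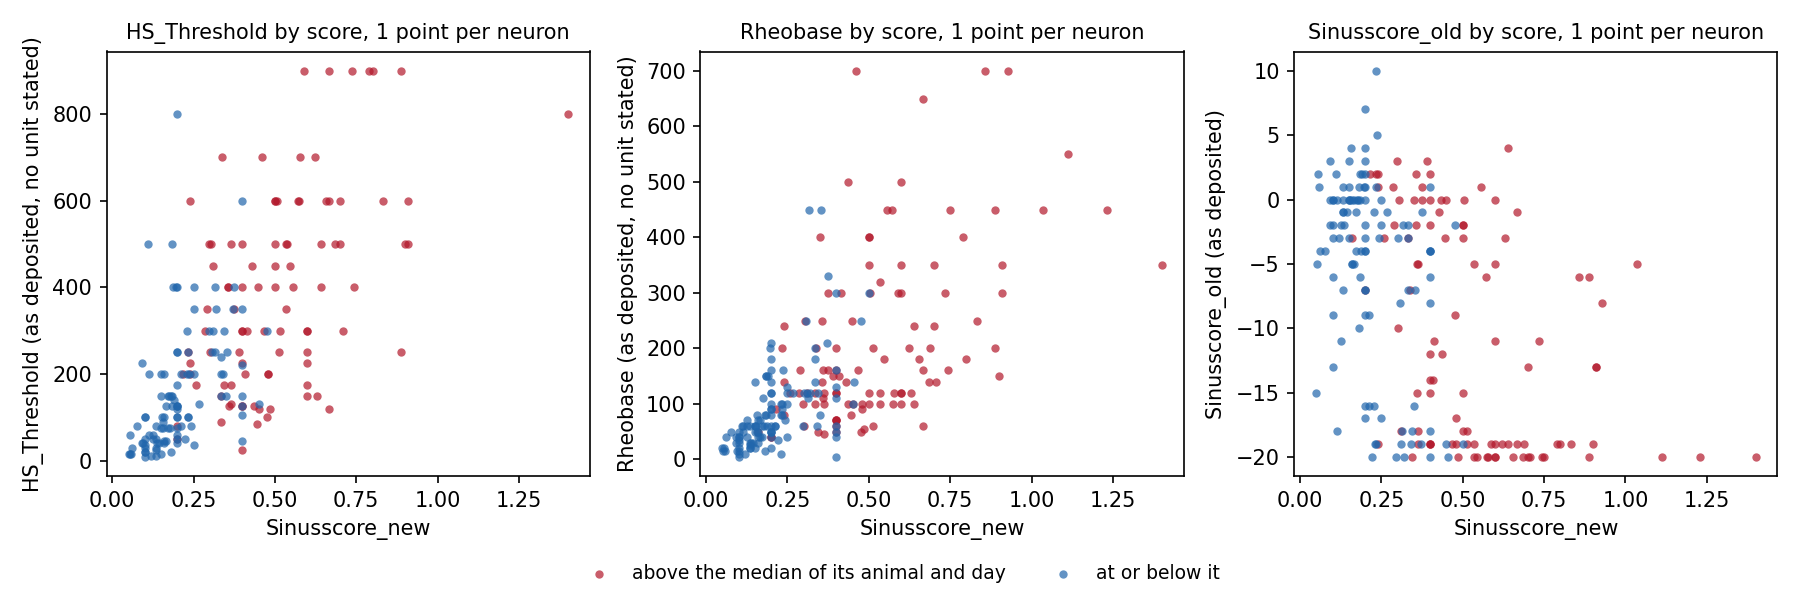
Each point is a neuron, placed by Sinusscore_new (horizontal) and by HS_Threshold, Rheobase or Sinusscore_old (vertical, as deposited), red above and blue at or below the median of its animal and day. Cells with a higher score sit at higher HS_Threshold and Rheobase, and cells at the lowest old score of -20 are mostly red (18 against 5).

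Recorded values, which the rule did not use, differed widely between the arms. Of 43 recorded parameters 14 passed the exact two-sided sign-flip permutation test over animals at an adjusted p of 0.05 (32.6% of those tested), 9 higher and 5 lower in higher-score neurons. In this test the arm means of each animal are subtracted and the signs of the differences are exchanged over animals, with Benjamini-Hochberg adjustment over the 43. With 10 animals the smallest p it can give is 0.00195. Some of the 14 repeat a measure, so they are not 14 separate results. The columns input_res and Input_res_new had equal means in animals 5 to 10, and slope_oversh and slope_oversh_0.5 are named for the same slope. Whether the score was itself computed from a current amplitude cannot be told from the table, so the current thresholds below may share a measurement with it.

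Higher-score neurons needed more current. Their Rheobase per animal had a lowest value of 141.2, a median of 199.7 and a highest of 315.8, against 52.5, 83.6 and 145.3 in lower-score neurons (units not stated in the table). Only 2 higher-score means fell below the highest lower-score mean, and within each of the 10 animals the higher-score arm was the larger. The means were 213.5 ± 62.4 and 89.7 ± 27.6 (SD, n = 10), a 2.38-fold difference (exact p = 0.00195, adjusted 0.00933). Over single cells the medians were 160 and 60, and the highest values were 700 and 450.

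HS_Threshold, a second current threshold that the table does not spell out, separated the arms by animal without overlap. It could be compared in 8 animals. The lowest, median and highest animal means were 242, 378.6 and 580 in higher-score neurons and 75.5, 146.2 and 218.8 in lower-score neurons. Every higher-score value lay above every lower-score value. The means of 383.5 ± 96.1 and 151.4 ± 47.6 differed 2.53-fold (exact p = 0.00781, the smallest 8 animals can give, adjusted 0.0240). The quotient of this threshold and the Rheobase (HS_Quotient, equal to that ratio in 100% of the cells with both, within a relative tolerance of 0.0001) was 2.35 ± 0.585 and 2.06 ± 0.353 and did not pass (adjusted exact p = 0.403), although it did when arm medians replaced arm means (adjusted exact p = 0.0420). Another current value, pA_threshold, was 144.7 ± 58.4 against 50.99 ± 51.2, higher in 8 of 10 animals (exact p = 0.00781, adjusted 0.0240). The exceptions were animal 2, with 49.1 against 49.6, and animal 8, with 150 against 163.3 and only 3 cells an arm.

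The passive properties differed in the matching direction. Input resistance (Input_res_new) was 0.0668, 0.159 and 0.202 at the lowest, median and highest animal among higher-score neurons and 0.192, 0.333 and 0.442 among lower-score neurons, so that only the ends of the ranges overlapped. It was lower in the higher-score arm of 10 of 10 animals, with means of 0.148 ± 0.0465 and 0.330 ± 0.0823 (exact p = 0.00195, adjusted 0.00933). The earlier column input_res gave 0.148 ± 0.0481 and 0.328 ± 0.0902. Cell diameter was 39.02 ± 2.48 against 35.9 ± 2.47 and larger in 7 of 10 animals, which did not pass (exact p = 0.0273, adjusted 0.0735). Capacitance (cslow) of 79.1 ± 18.1 against 71.05 ± 12.3 did not pass either (adjusted exact p = 0.359), and resting potential (RMP) was -57.4 ± 2.82 against -57.5 ± 3.81 (adjusted exact p = 0.983). At 1 day in culture alone, diameter and cslow did pass, with differences of 5.60 and 21.5 (adjusted exact p = 0.0448 for each).

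The approach to the spike differed as well. Spikes started at a less negative voltage in higher-score neurons: AP_threshhold was -41.6 ± 2.75 against -46.1 ± 2.24, higher in 10 of 10 animals (exact p = 0.00195, adjusted 0.00933), with animal means from -45.1 to -35.7 and from -49.3 to -42.5. The slope below threshold (subthresh_slope) was 1.94 ± 0.464 against 0.833 ± 0.268. The slopes named slope_oversh and slope_oversh_0.5 had animal means that did not overlap, 9.50 to 15.5 against 4.19 to 9.22 and 17.9 to 29.3 against 8.04 to 17.5. Together with HS_Threshold these were the 3 of the 14 parameters whose animal means lay apart. All 3 slopes were steeper in 10 of 10 animals. The time named TTP was shorter, at 26.2 ± 9.95 against 55.1 ± 15.1, again in 10 of 10 animals. Each of these 4 had an exact p of 0.00195 (adjusted 0.00933).

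Among features of the spike itself, fewer separated the arms. Spike amplitude (Apamp) was 107.01 ± 6.13 against 107.7 ± 3.79, the peak voltage (AP_max) 47.1 ± 5.58 against 46.7 ± 3.51, the duration (APD) 3.15 ± 0.423 against 3.22 ± 0.471, and the steepest rise (max_slope_raw) 151.95 ± 15.7 against 147.87 ± 17.0, none of which passed (adjusted exact p from 0.750 to 0.944). The 2 spike features that did pass were Loc_APHW, at 2.77 ± 3.66 against 0.233 ± 2.53 and higher in 9 of 10 animals (exact p = 0.00781, adjusted 0.0240), and Shoulder, at 1.94 ± 2.45 against -1.61 ± 2.29 and higher in 9 of 9 (exact p = 0.00391, adjusted 0.0168). The column AHP_new, named for the afterhyperpolarisation, the dip that follows a spike, was lower at 22.1 ± 3.10 against 38.8 ± 7.98 in 10 of 10 animals (exact p = 0.00195, adjusted 0.00933). A lower value here need not mean a shallower dip. In animal 9 its means of 26.6 and 32.2 equalled those of AHP_Tau, a column named for a time constant. Min_AHP, named for the minimum of the dip, was -72.8 ± 2.59 against -74.7 ± 1.91 and did not pass (adjusted exact p = 0.227). Loc_APHW missed the threshold with cells at the median left out (adjusted exact p = 0.0682), at 1 day alone (0.0593) and without spontaneously active cells (0.197). AP_threshhold and Shoulder missed it at 1 day alone (adjusted exact p = 0.0525 and 0.128).

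Spontaneous activity was less frequent among higher-score neurons. It was recorded in 13 higher-score cells (12.3%) and 38 lower-score cells (32.2%). The mean share per animal was 0.143 ± 0.122 against 0.347 ± 0.114, lower in 8 animals, equal in 1 and higher in 1 (exact p = 0.00781, adjusted 0.0240). With the median of this yes-or-no value in place of its mean the difference was -0.15 and did not pass (adjusted exact p = 0.467). In 3 animals no higher-score cell was spontaneously active, while every animal had such a cell in its lower-score arm. Without the spontaneously active cells 14 of the other 42 parameters passed, but not all were the same. Loc_APHW no longer passed (adjusted exact p = 0.197), while diameter and subthresh_slope_0.5 did (adjusted exact p = 0.0469 and 0.0273).

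Values recorded at fixed stimulus frequencies did not pass over all days. At 2 Hz, 4 Hz, 10 Hz and 20 Hz the columns gave 18.5 ± 1.76 against 19.2 ± 1.06, 18.0 ± 2.00 against 18.1 ± 1.59, 17.6 ± 2.06 against 17.8 ± 1.69 and 15.94 ± 2.31 against 15.97 ± 2.49. At 50 Hz they were 10.6 ± 2.51 against 11.98 ± 2.35 and at 100 Hz 5.37 ± 1.64 against 6.98 ± 1.99 (adjusted exact p = 0.244 and 0.212). At 1 day alone the values at 50 Hz and 100 Hz were lower in higher-score neurons by -4.38 and -2.76 (adjusted exact p = 0.0336 for each). The 8 columns on a train of 75 pulses had adjusted exact p-values from 0.403 to 0.983 over 7 animals. A difference between 1 and 2 days was itself tested in at most 6 animals for the 43 parameters, and 0 passed, with 0 at an unadjusted exact p under 0.05. With 6 animals the smallest exact p is 0.03125, and with the 5 of Shoulder and AHP_Tau it is 0.0625. After adjustment a parameter could pass only if many reached that smallest value together. The test therefore cannot show that the days were alike.

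**Figure D2:**
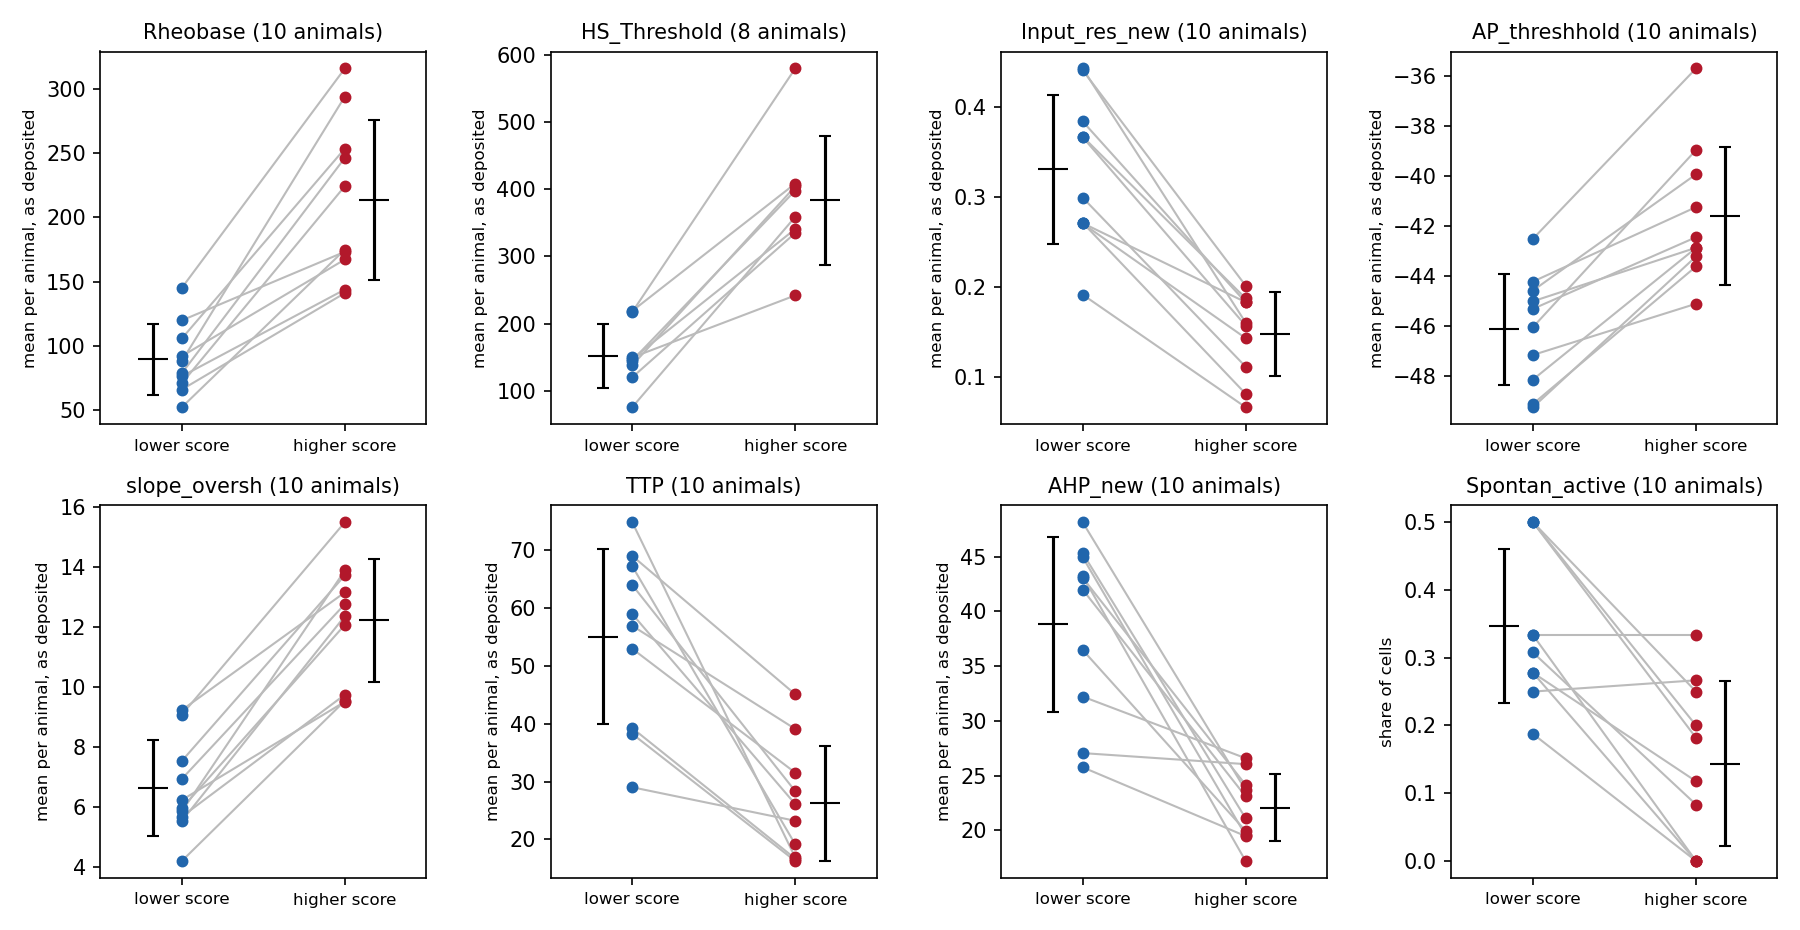
Each panel gives a recorded parameter (vertical, as deposited, or the share of spontaneously active cells), each grey line joins the mean of lower-score cells (blue) and higher-score cells (red) of an animal, and the black bars are the mean and SD over animals. The lines rise in 10 of 10 animals for Rheobase, AP_threshhold and slope_oversh and fall in 10 of 10 for Input_res_new, TTP and AHP_new.

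The shares of the 2 main neuron classes that RNA marks in these cells did not differ beyond their spread over animals. OSMR-positive neurons (log2(CPM + 1) of OSMR of at least 5), which include the C-fibre class with the receptor subunits for interleukin-31 and oncostatin M, made up 32.7 ± 18.4% of higher-score and 31.3 ± 17.3% of lower-score cells per animal, a difference of 1.45 ± 19.5 points (SD, n = 10), higher in 6 of 10 animals (exact p = 0.812). ADCYAP1-high neurons (at least 7), a peptidergic group that makes the neuropeptide PACAP, made up 61.01 ± 19.3% and 68.6 ± 17.9% (exact p = 0.285). Of all cells 33.6% were OSMR-positive and 64.6% ADCYAP1-high, 18 cells were both and 22 neither.

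The recorded differences were also seen inside the OSMR-low cells, those below that OSMR threshold, where 14 of 43 parameters (32.6%) passed, 10 higher and 4 lower, in up to 8 animals with a smallest possible p of 0.00781. All 14 parameters that passed over all cells had the same direction there, and 11 of them passed again. The OSMR-low cells are a part of all cells, so the 2 results are not independent. Rheobase was 187.97 against 72.1 and HS_Threshold was higher by 238.1 (adjusted exact p = 0.0373 for each), both higher in 8 of 8 animals. Diameter, subthresh_slope_0.5 and AHP_Tau passed in this subset and not over all cells, while TTP, Shoulder and Spontan_active did not pass in it. A difference between the 2 sets of cells was not tested. In OSMR-positive cells, where at most 6 animals could be compared, all 14 parameters had the same direction and 0 passed after adjustment, with 9 of 43 at an unadjusted exact p under 0.05. There Rheobase was 308.1 against 124.7 and higher in 6 of 6 animals (exact p = 0.0312, the smallest possible). The share of mitochondrial counts was lower in the higher-score arm of OSMR-low cells, 4.62 ± 1.44% against 6.74 ± 2.33% (lower in 7 of 8 animals, exact p = 0.0391, adjusted 0.211 over 9 quality measures), and 4.77 ± 1.39% against 5.72 ± 2.30% over all cells (exact p = 0.156). Its part in the recorded differences was not tested.

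**Figure D3:**
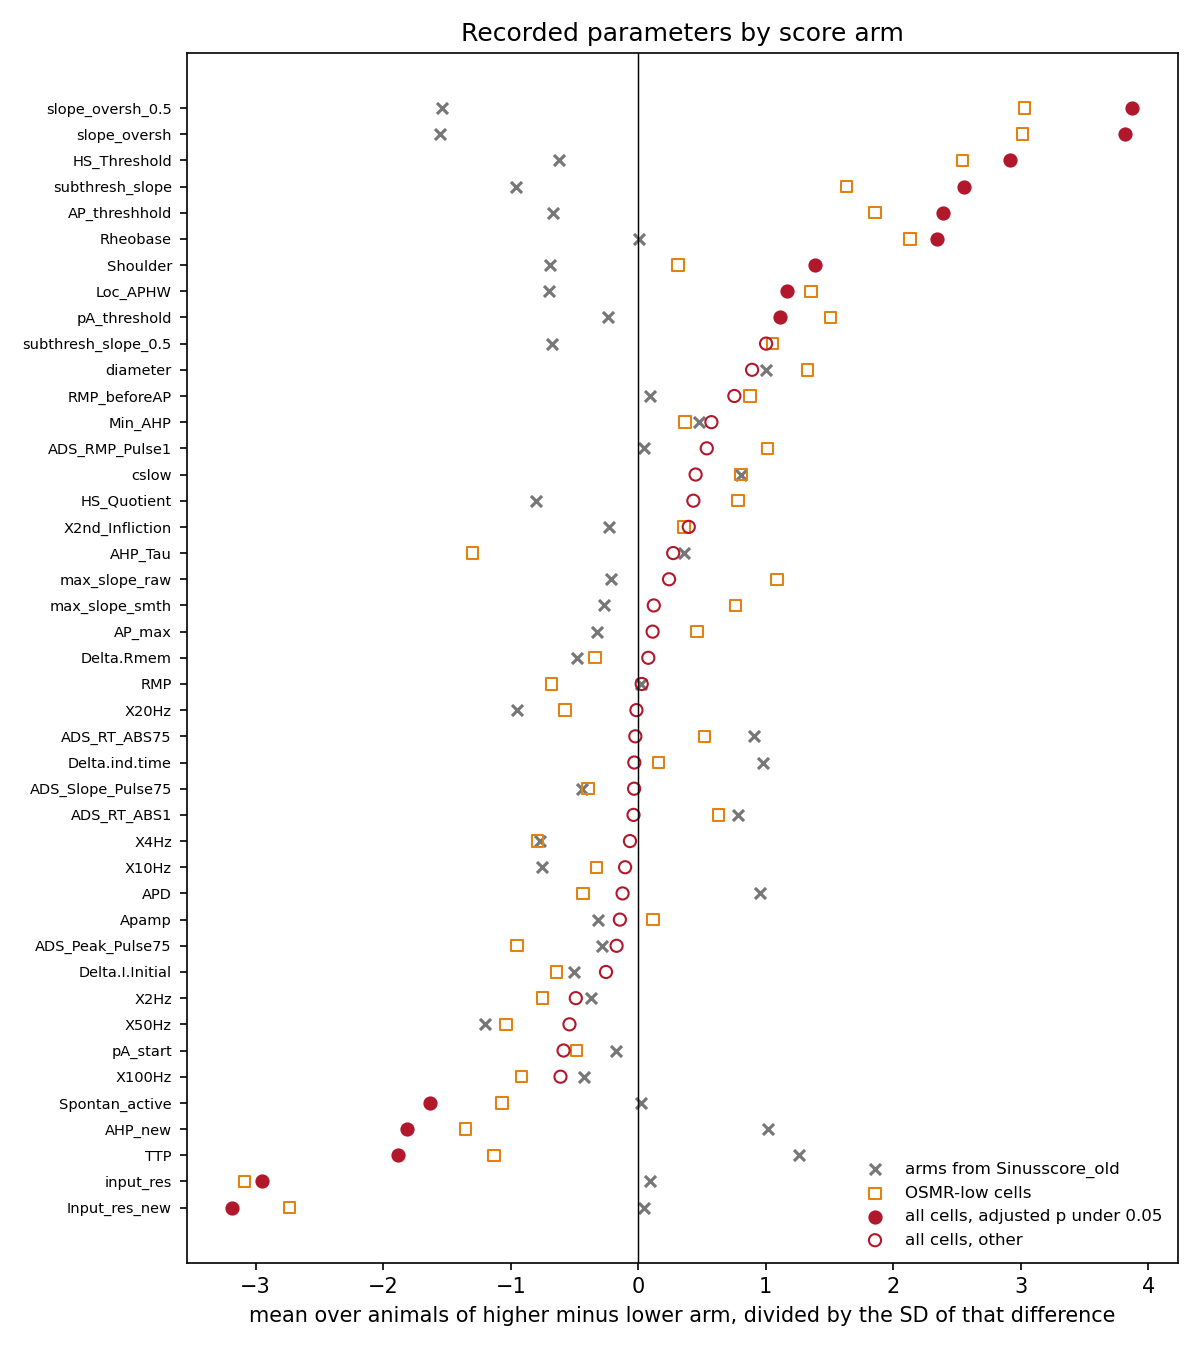
Each row is 1 of the 43 recorded parameters, and the horizontal axis is the mean over animals of the higher-score minus the lower-score arm, divided by the SD of that difference. Filled red points passed the exact test in all cells, open red points did not, orange squares are OSMR-low cells and grey crosses are arms from Sinusscore_old, which for 13 of the 14 filled points lie on the other side of 0.

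Gene expression was compared over the same arms with another test and over far more values. Its share of calls cannot be set directly against that of the recorded parameters. Counts were summed per animal and arm and compared by edgeR's quasi-likelihood test, blocking on the animal. Of 17385 genes 0 passed an adjusted p of 0.05 (0%), and 544 had an unadjusted p under 0.05 (3.13%, where an even spread of p would give 869). Among OSMR-low cells 0 of 15454 passed (0%), with 599 at an unadjusted p under 0.05 (3.88%). DESeq2 on the same sums called 3 genes over all cells (0.0173%), TMEM100, FGF1 and SYT6, and 12 among OSMR-low cells (0.0776%). limma on animal means of single cells called 0, with 783 genes at an unadjusted p under 0.05. The absence of calls is not the absence of difference, and the precision can be read from the genes themselves. Among the 5878 genes with a mean log2 CPM over 4, the median standard error of a log2 fold change was 0.19, 99.9% of fold changes lay within 1 log2 unit of 0, and the middle 98% lay between -0.51 and 0.57.

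**Figure D4:**
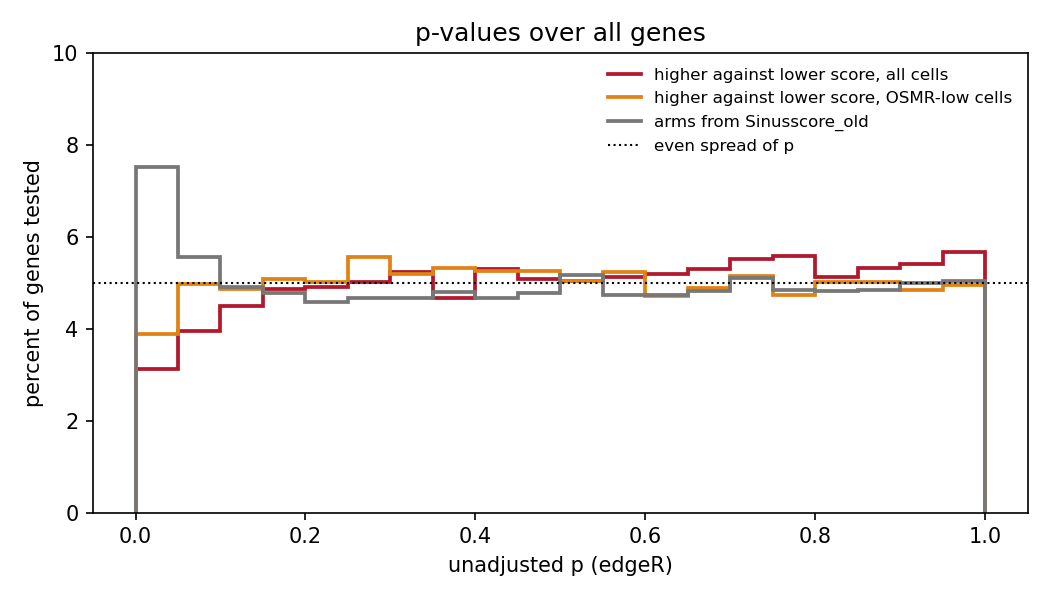
The horizontal axis is the unadjusted edgeR p-value in bins of 0.05 and the vertical axis the percent of genes tested in each bin. The lowest bin holds 3.13% of genes for the score arms, 3.88% among OSMR-low cells and 7.52% for arms from Sinusscore_old, against the dotted line of an even spread.

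The genes with the lowest p-values did not pass in edgeR (adjusted p = 1.00 for each) and are given as values. FGF1, a fibroblast growth factor, had log2 CPM values from 5.92 to 8.67 (median 7.02) in higher-score sums and from 5.01 to 7.30 (median 6.06) in lower-score sums. The ranges overlapped, but the higher-score sum was the larger in 10 of 10 animals, by 0.13 to 1.43. The log2 fold change was 0.77 ± 0.16 (SE) with an unadjusted edgeR p of 0.000188, and DESeq2 gave an adjusted p of 0.0408. TMEM100, a membrane protein known in sensory neurons for adjusting TRPA1, had log2 CPM values from 4.24 to 7.12 (median 6.10) against 1.33 to 6.09 (median 4.37). It was higher in 9 of 10 animals with a log2 fold change of 1.38 ± 0.30, and its adjusted p in DESeq2 was 0.0250. SYT6, a synaptotagmin, was expressed at a low level and had a log2 fold change of 2.63 ± 0.76, higher in 8 of 10 animals.

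The others were picked for the lowest p-values on each side among genes with a symbol and a mean log2 CPM over 3. At most 2 animals could go against the direction, for FGF1 and TMEM100 too. The counts of animals are therefore partly set by this choice. RAPGEF4, an exchange factor activated by cyclic AMP, had a log2 fold change of 0.71 ± 0.17 and was higher in 9 of 10 animals. The lysosomal enzyme gene IDS had 0.60 ± 0.15 and was higher in 10 of 10. NRP2, a co-receptor for semaphorins, had 1.05 ± 0.27 and was higher in 9 of 10, with its largest difference, 2.97, in animal 8, which had 3 cells an arm. On the lower side, GPRASP2, which acts in the sorting of receptors, had -0.44 ± 0.12 (lower in 9 of 10 animals) and the histone gene H2BC5 -0.59 ± 0.17 (lower in 10 of 10). CALCR, the calcitonin receptor, had -1.41 ± 0.41 and was lower in 8 of 10. CD86, a surface protein of antigen-presenting cells, had -0.89 ± 0.27 and was lower in 9 of 10. In OSMR-low cells the 5 higher genes (FGF1, TMEM100, RAPGEF4, IDS and NRP2) and these 4 lower genes had the same sign, with log2 fold changes of 0.88 to 1.23 on the higher side and -1.65 to -0.43 on the lower. The OSMR-low cells are a part of the cells in which these genes were picked, so the shared sign is no independent support.

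Ion channel genes, the group most directly tied to excitability, held no gene called by edgeR in either set of cells. Of the 83 tested members of the 6 channel lists 0 passed (background 0%), 8 had an unadjusted p under 0.05 (9.64%, beside 3.13% of all genes), 49 had a value above 0 and 34 below, and 78 lay within 1 log2 unit. The 8 were DPP6, TRPM3, ANO6, P2RX4, KCND1, TMEM63A and TRPC5 on the higher side and KCNK2 on the lower. DPP6, an auxiliary subunit of A-type potassium channels, had a log2 fold change of 0.99 ± 0.33 and was higher in 8 of 10 animals, and KCND1, a pore-forming subunit of the same current, had 0.69 ± 0.30, also higher in 8 of 10. ANO6, a scramblase and channel of the anoctamin family, had 0.60 ± 0.25 and was higher in 10 of 10. KCNK2, the leak channel TREK-1, had -0.62 ± 0.28 and was lower in 7 of 10. DESeq2 did call a member in OSMR-low cells, the anoctamin gene ANO4, at -3.34 ± 0.74 (adjusted p = 0.0145). It was lower in 7 animals and higher in 1, was expressed at a low level, and did not pass in edgeR there (adjusted p = 0.988).

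The sodium channel list had 10 tested members with a median log2 fold change of 0.06, beside 0.00 for all genes. Of the channels that carry nociceptor spikes, SCN9A had log2 CPM values of 7.55 ± 0.511 and 7.50 ± 0.433 (SD, n = 10) and a log2 fold change of 0.05 with a 95% interval from -0.25 to 0.36. SCN10A had 6.09 ± 0.741 and 5.58 ± 0.662, with a fold change of 0.52 and an interval from -0.03 to 1.07 (unadjusted edgeR p = 0.0641, higher in 8 of 10 animals). SCN11A had 7.94 ± 0.856 and 7.70 ± 0.712 and an interval from -0.33 to 0.82. A change of 2-fold or more in SCN9A lies outside its interval, while for SCN10A it does not. SCN8A, another spike channel, was low and its interval ran from -0.79 to 1.05.

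The potassium channels of the slow, A-type and delayed rectifier kinds had 22 tested members, 17 with a value above 0, and a median of 0.26. KCNQ5, a subunit of the M-current that restrains firing, had 0.21 ± 0.29, and KCND3 had 0.50 ± 0.33 in all cells and 1.13 ± 0.37 in OSMR-low cells, where its unadjusted edgeR p was 0.00809. KCNIP4, a partner of A-type channels, had -0.07 ± 0.17. The leak, inward rectifier and calcium-activated list had 12 tested members and a median of -0.15, with KCNMA1 (the BK channel) at -0.32 ± 0.27. HCN channels, which pass a pacemaker current, had 2 tested members, 1 with a value above 0 and 1 below. The 10 calcium channel subunits had a median of -0.13 and the 5 sodium pump subunits -0.21.

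Among the 27 tested members of the TRP, mechanically gated, acid-sensing and anoctamin list the median was 0.10. The capsaicin receptor TRPV1 had 0.15 ± 0.21, the irritant receptor TRPA1 -0.75 ± 0.51 and the touch channel PIEZO2 1.31 ± 0.73 (higher in 7 of 10 animals). TRPM8, the cold receptor, had the most negative value of the fixed genes, -1.65 ± 0.81, but its interval ran from -3.37 to 0.07 and it was lower in 7 of 10 animals. Of the list of cold and C-low-threshold mechanoreceptor genes 9 of 11 had a value below 0, with a median of -0.43 and 0 at an unadjusted p under 0.05. Over a set list of 40 channel genes and class markers, 33 were expressed highly enough to test, and 16 of them had a 95% interval within 1 log2 unit of 0. The other 7 (SCN3A, KCNQ3, HCN2, HCN3, CACNA1H, CACNA1I and KCND2) fell under the filter on low counts.

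**Figure D5:**
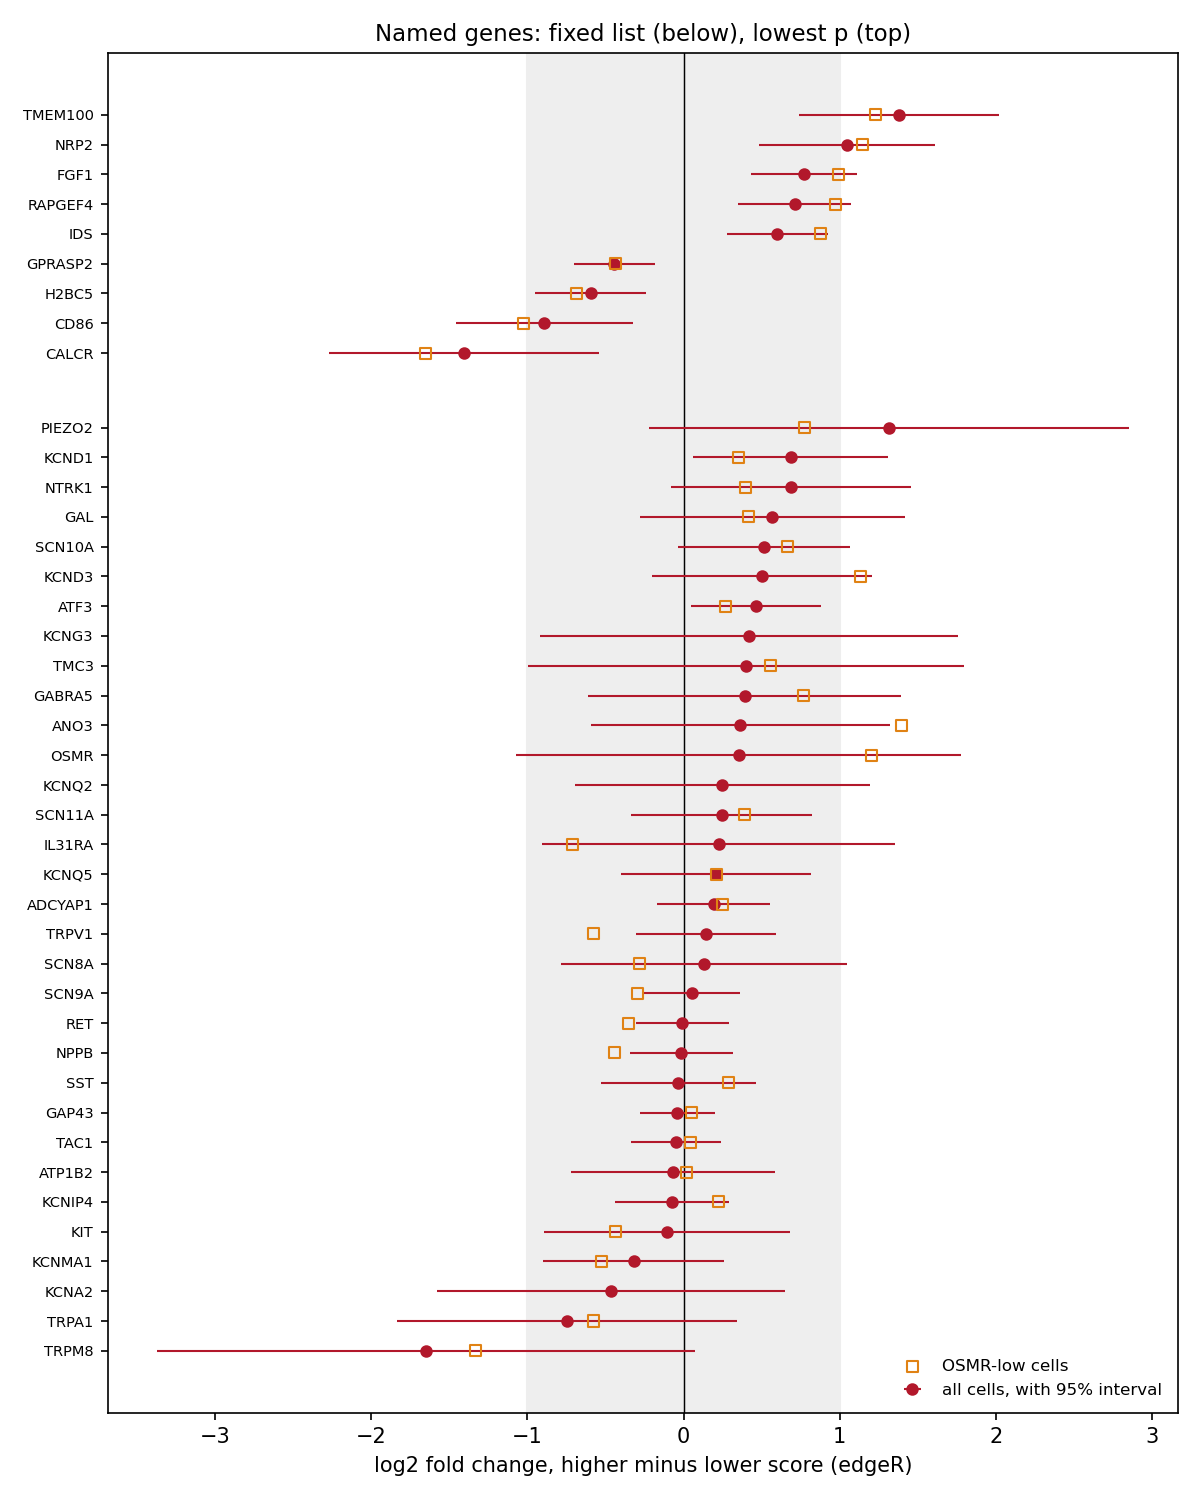
Points are edgeR log2 fold changes of higher-score minus lower-score sums with their 95% intervals, orange squares are the same in OSMR-low cells, and the grey band marks 1 log2 unit on either side of 0. The 9 genes at the top were picked for the lowest p among genes with at most 2 animals against, so their distance from 0 is part of the choice. Most intervals of the 32 fixed genes shown cross 0.

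No list of genes for a neuron class or state held a gene called by edgeR. The 16 tested genes of the OSMR SST C-fibre list had a median log2 fold change of 0.16. Its receptor genes OSMR and IL31RA had 0.35 ± 0.67 and 0.22 ± 0.53, and the peptide genes SST and NPPB -0.03 ± 0.24 and -0.01 ± 0.16. The 13 peptidergic genes had a median of -0.05, with TAC1 (substance P) at -0.05 ± 0.14 and ADCYAP1 at 0.19 ± 0.17. Non-peptidergic C-fibre genes had a median of 0.20 over 8 and A-fibre genes 0.14 over 8. Of the axotomy and regeneration list 14 of 19 members had a value above 0 (median 0.16). The injury-induced factor ATF3 had 0.46 ± 0.20 (unadjusted edgeR p = 0.0320, higher in 8 of 10 animals), GAL 0.57 ± 0.40 and GAP43 -0.04 ± 0.11.

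Depth did not differ beyond its spread over animals. Mean total counts per cell were 1025020 and 1045530 in the higher-score and lower-score arms (exact p = 0.906) and genes detected 13243 and 12924 (exact p = 0.350). Summed neuron markers (RBFOX3, TUBB3, UCHL1, SNAP25 and PRPH) were 8060 to 14303 CPM in higher-score sums and 8446 to 11002 in lower-score sums, higher in 8 of 10 animals (exact p = 0.0234). The sum of a wider list of 10 neuron identity genes, as a mean over single cells on the log2 scale, was 13.80 against 13.86. It was lower in 7 of 10 animals (exact p = 0.475). The genes and the averaging both differ, so these directions cannot be set against each other. The 5 satellite glia markers were 55.2 to 571 against 12.5 to 348 CPM, higher in 7 of 10 (exact p = 0.0742), the 4 Schwann cell markers 445 to 1084 against 397 to 939, and the 6 macrophage markers 29.3 to 555 against 7.82 to 423. Fibroblast markers reached at most 98.6 and 89.1 CPM, and endothelial markers 68.1 and 275. In the wider lists 10 of 12 satellite glia genes and 8 of 10 Schwann cell genes had a value above 0 (medians 0.46 and 0.32), and 0 passed. No marker was at 0 in every sum. Their part in the gene values above was not tested.

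The old score, split in the same way, gave a different picture. Of 43 recorded parameters 0 passed (0%), with 12 at an unadjusted exact p under 0.05. Of the 14 that passed with the current score, 13 had the opposite direction, some of them by little. The difference was 0.00901 for input_res and 0.00870 for Spontan_active (unadjusted exact p = 0.771 and 0.945). TTP was 58.01 in cells with a higher old score against 29.86 (adjusted exact p = 0.0840), slope_oversh 6.92 against 11.0 (adjusted exact p = 0.0630), and Rheobase 147.3 against 147.1. In genes, 19 of 16799 passed in edgeR (0.113%) and 1263 had an unadjusted p under 0.05 (7.52%). Among the 10 that were higher with a higher old score, 9 were the mitochondrially encoded ATP6, ATP8, COX1, COX2, ND1, ND2, ND4, ND4L and ND5. The remaining gene, at 0.92 ± 0.16, had no matched symbol, and whether it is mitochondrial too was not determined. ATP6, a subunit of the ATP synthase, had a log2 fold change of 0.94 ± 0.13 (adjusted edgeR p = 0.00924), while over the current score's arms it had -0.28 ± 0.16. ATP6 and ATP8 overlap in the genome, as do ND4 and ND4L, so reads could be shared between them. The mitochondrial share of counts was 6.74 ± 2.09% against 4.17 ± 1.43% and higher in 10 of 10 animals (exact p = 0.00195), and OSMR-positive cells made up 45.5% against 22.7% (exact p = 0.0254). The part of either in these gene calls was not tested. Among the 9 lower genes were RCAN1, an inhibitor of calcineurin, at -1.29 ± 0.22, TIMP1, an inhibitor of matrix proteases, at -0.97 ± 0.17, and GLCE, which modifies heparan sulfate, at -0.90 ± 0.14. Over the current score's arms RCAN1 had 0.57 ± 0.15.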

How the data were processed

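Estimated counts of 30420 genes per neuron were deposited, while the aligner, counting tool, build and annotation were not given in the sources used here (bcl2fastq 2.20 is named in the submitters' processing notes). Of the values above 0, 52.1% were not whole. Symbols were matched for 14867 identifiers. The deposited table of recordings holds scores and other values with no units stated, and 43 of its 269 lines belong to no sample used here. Smart-Seq2 marks neither molecules nor strand. The members, gene lists and tests were chosen with earlier results of these data known.

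Cells were divided at the median Sinusscore_new of their animal and day. The animal, taken from the table of recordings, was the replicate and paired the arms. Counts were summed per animal and arm (at least 3 cells), rounded, and tested with edgeR 4.0.16 (TMM, filterByExpr, quasi-likelihood, animal as a block, R 4.3.3), with DESeq2 1.42.0 and limma 3.58.1 as alternatives. Log2 CPM values use a prior count of 2. Class thresholds were 5 (OSMR) and 7 (ADCYAP1) on log2(CPM + 1), with a pseudocount of 1. Recorded parameters present in at least 70% of cells were compared by the exact sign-flip test (Python 3.11.15), leaving out columns named for the sinusoidal stimulus, constants and copies. Tests were checked on simulated data. Named genes were the called genes, filled up to 5 per direction with those of lowest p, limited to symbols at a mean log2 CPM over 3 with at most 2 animals against, plus 40 fixed genes. Values of 2 of these genes are not reported here.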

Additional observations from a re-analysis of the deposited data

Results flagged for a closer look

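Differences between the arms were looked at animal by animal for 86 values (the 43 parameters and 43 named genes), and in 8 of them an animal at one end lay far from the others. Chance alone sets about 1 in 20 such groups apart. This rate is only a rough guide here, since the values are not all independent and some genes were picked for a shared direction.

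Among recorded values, subthresh_slope differed by 2.203 in animal 7 and by 0.739 to 1.42 in the others. AHP_Tau differed by 795 in animal 5 and by -30.6 to 1.73 in the others, and 1 cell of that animal had a value of 6908, while the third quartile of higher-score cells was 22.5. Delta.ind.time differed by 0.549 in animal 9 and by -0.35 to 0.0295 in the others.

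Among genes on the log2 scale, NRP2 differed by 2.97 in animal 8 (others -0.07 to 1.48), OSMR by 8.68 in animal 3 (others -4.05 to 1.81), IL31RA by -5.62 in animal 8 (others -0.66 to 3.82), GABRA5 by -4.56 in animal 8 (others -0.43 to 3.19) and ATP1B2 by -3.11 in animal 2 (others -0.65 to 1.32). Animal 8 had 3 cells in each arm.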

How the results depend on the processing

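The gene count of 0 over all cells became 3 with DESeq2, 1 without a filter on low counts (GIP), 1 at 1 day alone (FMOD) and 19 with arms from Sinusscore_old. It was 0 in the other 8 settings and ranged from 0 to 0 leaving out each animal. Among OSMR-low cells it became 12 with DESeq2 and 2 without the filter (TNNC1 and a gene without a symbol), and ranged from 0 to 0 leaving out each animal. The 14 recorded parameters ranged from 14 to 15 leaving out each animal and from 13 to 16 in 6 other settings. They became 0 with arms from Sinusscore_old and 0 in OSMR-positive cells alone, where at most 6 animals remain. Among OSMR-low cells the 14 ranged from 0 to 14 leaving out each animal, where 7 animals allow no p under 0.0156. In ADCYAP1-high cells alone 0 passed. These were taken from all cells and not limited to OSMR-low cells, and 18 cells of the series were in both classes. There 13 of the 14 kept their direction and 8 were at that smallest exact p. The differences were 103.3 for Rheobase, 222.9 for HS_Threshold, -0.229 for Input_res_new and -23.2 for AHP_new. Settings with the spontaneously active cells left out or OSMR-positive cells alone were chosen after seeing the data. With arms from the old score the difference was -22.8 for pA_threshold, 0.00901 for input_res, 0.00450 for Input_res_new, -1.92 for AP_threshhold, -1.57 for Loc_APHW, -4.10 for slope_oversh, -7.49 for slope_oversh_0.5, -0.73 for subthresh_slope, 28.1 for TTP, -3.24 for Shoulder, 12.2 for AHP_new, 0.00870 for Spontan_active and -82.8 for HS_Threshold, all opposite to the current score. The cause was not tested. AHP_Tau, 69.96 over all cells, became -7.45 with arm medians and ranged from -10.6 (without animal 5) to 81.1 leaving out each animal. It was -13.4 among OSMR-low cells and 175.8 in ADCYAP1-high cells, a set not limited to OSMR-low cells. Its highest animal mean in higher-score cells was 27.2 among OSMR-low and 2215 among OSMR-positive cells. The difference in the OSMR-positive share was 1.45 points, ranged from -1.17 to 5.31 leaving out each animal and became 22.8 with the old score. No paired analysis by replicate number was possible because each number in the titles belongs to 1 cell, in a single count over all cells. The animal paired the arms, and without it as a block 0 genes passed. Where 3 cells make a sum, as in animal 8, a gene's value rests on few cells. No units or definitions of the recorded columns were given.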

Other observations

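The current score also varied with day and class, in comparisons chosen after the values had been seen. In 7 animals with cells at both days its mean was 0.313 ± 0.0862 at 1 day and 0.431 ± 0.0944 at 2 days, higher at 2 days in 6 of 7 (exact p = 0.0469, adjusted 0.352 over 15 comparisons). The old score fell over the same days, from -5.88 ± 4.23 to -10.3 ± 3.38, lower in 6 of 7 (adjusted exact p = 0.352). ADCYAP1-high neurons had a lower current score than the other neurons of their animal, 0.340 ± 0.0655 against 0.429 ± 0.134, in 8 of 9 animals (exact p = 0.0117, adjusted 0.0469 over 4 comparisons). OSMR-positive neurons had 0.372 ± 0.0873 against 0.351 ± 0.0738 (adjusted exact p = 0.258). Both class comparisons pooled the days of an animal, and the part of the day in them was not tested.

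Genes that only DESeq2 called in OSMR-low cells included FOS, an immediate early gene, at a log2 fold change of -1.85 ± 0.40 (adjusted p = 0.0129, lower in 7 of 8 animals), AGTR1, an angiotensin receptor, at -1.64 ± 0.37 (adjusted p = 0.0150, lower in 8 of 8) and SLC1A1, a glutamate transporter, at 2.94 ± 0.55 (adjusted p = 0.00115, higher in 8 of 8). In edgeR none of the 3 passed (adjusted p = 0.988 for each). They were singled out after their values were seen.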
